A study of Mus musculus with 12 samples.

Results

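The genes of de novo fatty acid synthesis were examined in a profile of H3K27ac, the acetylation of lysine 27 on histone H3 that marks active promoters and enhancers. The profile was made by chromatin immunoprecipitation and sequencing (ChIP-seq) in 4T1, a wild-type mouse mammary carcinoma line. All intervals of the deposited table whose gene name was Fasn, Acaca, Acacb, Scd1, Scd2, Elovl6, Srebf1, Fads1, Fads2 or Me1 were taken, and their signal was read per interval and summed per gene. These were 10 of the 22264 gene names in the table and 63 of its 126464 intervals.

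Cells were cultured for 48 h in one of 6 ways: with vehicle, with 5 mM acetate, with 50 µM etomoxir, with etomoxir + acetate, with etomoxir + SB204990 at 50 µM each, or with etomoxir + SB204990 + acetate. SB204990 was never given without etomoxir. Each treatment had 2 libraries, 12 in all, and one library of each treatment shares a name suffix, so the libraries are referred to as set 1 and set 2. What the suffix stands for is not stated, nor whether the libraries came from separate cultures, so p-values below measure only the spread between these libraries, which may be technical.

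Fatty acids are built from cytosolic acetyl-CoA. Acetyl-CoA carboxylase (ACC1, encoded by Acaca, and ACC2, encoded by Acacb) turns it into malonyl-CoA, fatty acid synthase (Fasn) assembles palmitate with NADPH supplied in part by malic enzyme (Me1), and elongases and desaturases (Elovl6, Scd1, Scd2, Fads1, Fads2) lengthen and desaturate the chain. SREBP-1, the product of Srebf1, is the transcription factor that drives most of these genes. The treatments touch the same acetyl-CoA pool: acetate can be converted to acetyl-CoA, SB204990 inhibits ATP citrate lyase, which makes acetyl-CoA from citrate, and etomoxir inhibits carnitine palmitoyltransferase 1, the step that malonyl-CoA itself restrains and by which long-chain fatty acids enter mitochondria. Acetyl-CoA is also the acetyl donor for histones.

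A value is the number of reads in an interval times a factor that the authors derived for each library from human chromatin added at 7.5%, and is called scaled signal here. One unit is one read in a library whose factor was 1. Reads in intervals ranged from 7179165 to 16676442 per library and factors from 0.398 to 1, with the factor fixed at 1 in a library of each set, so the scales of the sets are separate. The second etomoxir + SB204990 library stood apart: it had the fewest reads, 2.77% of them in the weakest quartile of intervals against 0.990% to 1.41% elsewhere, and a mean correlation of 0.915 with the other libraries against 0.949 to 0.958. Marks of the labelled cell type were present, with summed scaled signals of 2641 to 5744 at Krt8, 638 to 1456 at Epcam and 1556 to 4164 at Cdh1 over the 12 libraries, whereas the leukocyte genes Ptprc and Cd3e lay at 32.3 to 81.6 and 2.79 to 32. Of the endothelial markers, Cdh5 was at 70.5 to 178 and Pecam1 at 382 to 1081, so Pecam1 was not near 0. In a population of cells, a higher mark in each cell and a larger share of cells carrying it cannot be told apart.

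Promoter sequences of the members were looked at first. RefSeq promoter windows (250 bases before to 50 bases after a start, GRCm38.p6, the build called mm10 in the processing notes) were matched for 7 of the 10 genes, Fads1, Scd1 and Scd2 having no entry, and gave 10 windows. The Acacb and Acaca windows and the Me1 window at chr9:86687228-86687527 overlapped no H3K27ac interval. The following 5 are shown because they lie inside intervals at genes the results turn on. They are written 5′ to 3′ on the strand of the gene, and capitals mark a CCAAT box (CCAAT) or a GC box (GGGCGG), read on either strand.
Fasn, chr11:120824498-120824797, minus strand: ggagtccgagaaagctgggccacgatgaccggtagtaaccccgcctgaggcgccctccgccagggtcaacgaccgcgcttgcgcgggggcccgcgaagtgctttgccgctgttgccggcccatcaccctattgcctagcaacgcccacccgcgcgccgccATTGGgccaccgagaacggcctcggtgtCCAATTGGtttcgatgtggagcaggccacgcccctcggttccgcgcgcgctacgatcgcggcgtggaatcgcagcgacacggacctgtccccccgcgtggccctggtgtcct
Srebf1, middle of 3 starts, chr11:60220578-60220877, minus strand: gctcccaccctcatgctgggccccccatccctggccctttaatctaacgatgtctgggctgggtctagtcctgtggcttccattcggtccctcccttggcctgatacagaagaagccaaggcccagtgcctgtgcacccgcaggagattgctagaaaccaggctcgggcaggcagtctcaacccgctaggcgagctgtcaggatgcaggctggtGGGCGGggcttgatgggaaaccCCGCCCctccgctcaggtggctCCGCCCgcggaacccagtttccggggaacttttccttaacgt
Srebf1, last of 3 starts, chr11:60210422-60210721, minus strand: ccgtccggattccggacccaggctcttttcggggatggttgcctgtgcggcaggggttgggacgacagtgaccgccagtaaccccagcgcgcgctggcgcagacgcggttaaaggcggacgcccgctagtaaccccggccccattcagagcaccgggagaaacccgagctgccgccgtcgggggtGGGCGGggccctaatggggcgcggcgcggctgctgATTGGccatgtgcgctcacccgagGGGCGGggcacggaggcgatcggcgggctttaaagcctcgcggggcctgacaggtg
Elovl6, chr3:129532136-129532435, plus strand: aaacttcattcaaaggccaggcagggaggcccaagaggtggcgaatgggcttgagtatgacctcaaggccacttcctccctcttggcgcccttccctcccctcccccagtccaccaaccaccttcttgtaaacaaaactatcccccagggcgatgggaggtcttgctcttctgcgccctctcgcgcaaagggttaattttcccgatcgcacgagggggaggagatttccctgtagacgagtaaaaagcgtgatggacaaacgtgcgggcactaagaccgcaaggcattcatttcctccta
Me1, chr9:86695865-86696164, minus strand: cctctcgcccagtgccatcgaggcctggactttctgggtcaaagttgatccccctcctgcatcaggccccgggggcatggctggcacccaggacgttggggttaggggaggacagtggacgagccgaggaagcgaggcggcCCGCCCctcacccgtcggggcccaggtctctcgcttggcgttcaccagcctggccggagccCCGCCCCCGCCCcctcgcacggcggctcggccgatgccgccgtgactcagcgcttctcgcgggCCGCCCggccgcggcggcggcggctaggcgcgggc

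The Fasn window held 3 CCAAT matches, a pair of which overlap on opposite strands, and no GC box. Of the Srebf1 windows, the middle one held 3 GC boxes and no CCAAT box, and the last one held 2 GC boxes and 1 CCAAT box. The Me1 window held 4 GC boxes and the Elovl6 window neither motif. A CCAAT box occurs in 37.4% and a GC box in 35.9% of all 32544 promoter windows of this length. The core of the sterol regulatory element (TCACNCCAC), the letters searched for SREBP binding, and the E-box (CACGTG) were absent from all 10 member windows, and are found in 1.24% and 7.17% of all windows. These matches describe letters in a window of 300 bases and nothing further upstream.

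H3K27ac signal was unevenly divided over the 10 loci. Srebf1 had a single interval of 66407 bp (chr11:60157150-60223556) with a mean scaled signal of 2206 over the 12 libraries, and this interval ran past the gene over Rai1 and its start, so that the signal of the neighbours could not be separated. Fasn had 2 intervals, the larger of 14443 bp (chr11:120813290-120827732) covering its 5′ end with a mean of 844 and holding 84.2% of the gene's signal. Fads2 had the most intervals, 18, followed by Scd1 and Scd2 with 8 each, Acaca and Me1 with 7, Fads1 with 6, Acacb with 5 and Elovl6 with 1. Per kilobase of the intervals that carry the gene's name, mean scaled signal was 44.7 at Scd2, 44.0 at Fasn, 33.2 at Srebf1, 28.6 at Acaca, 28.2 at Fads2, 26.3 at Scd1, 25.9 at Fads1, 21.7 at Acacb, 19.7 at Me1 and 18.1 at Elovl6. These values leave out promoter intervals filed under other names, which measured 72.8 per kilobase at Elovl6, 53.2 at internal coding starts of Acaca and 39.2 at Me1. No member interval was at 0 in any library, and 42 of the 63 reached the mean scaled signal of 10 required for a test.

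**Figure D1:**
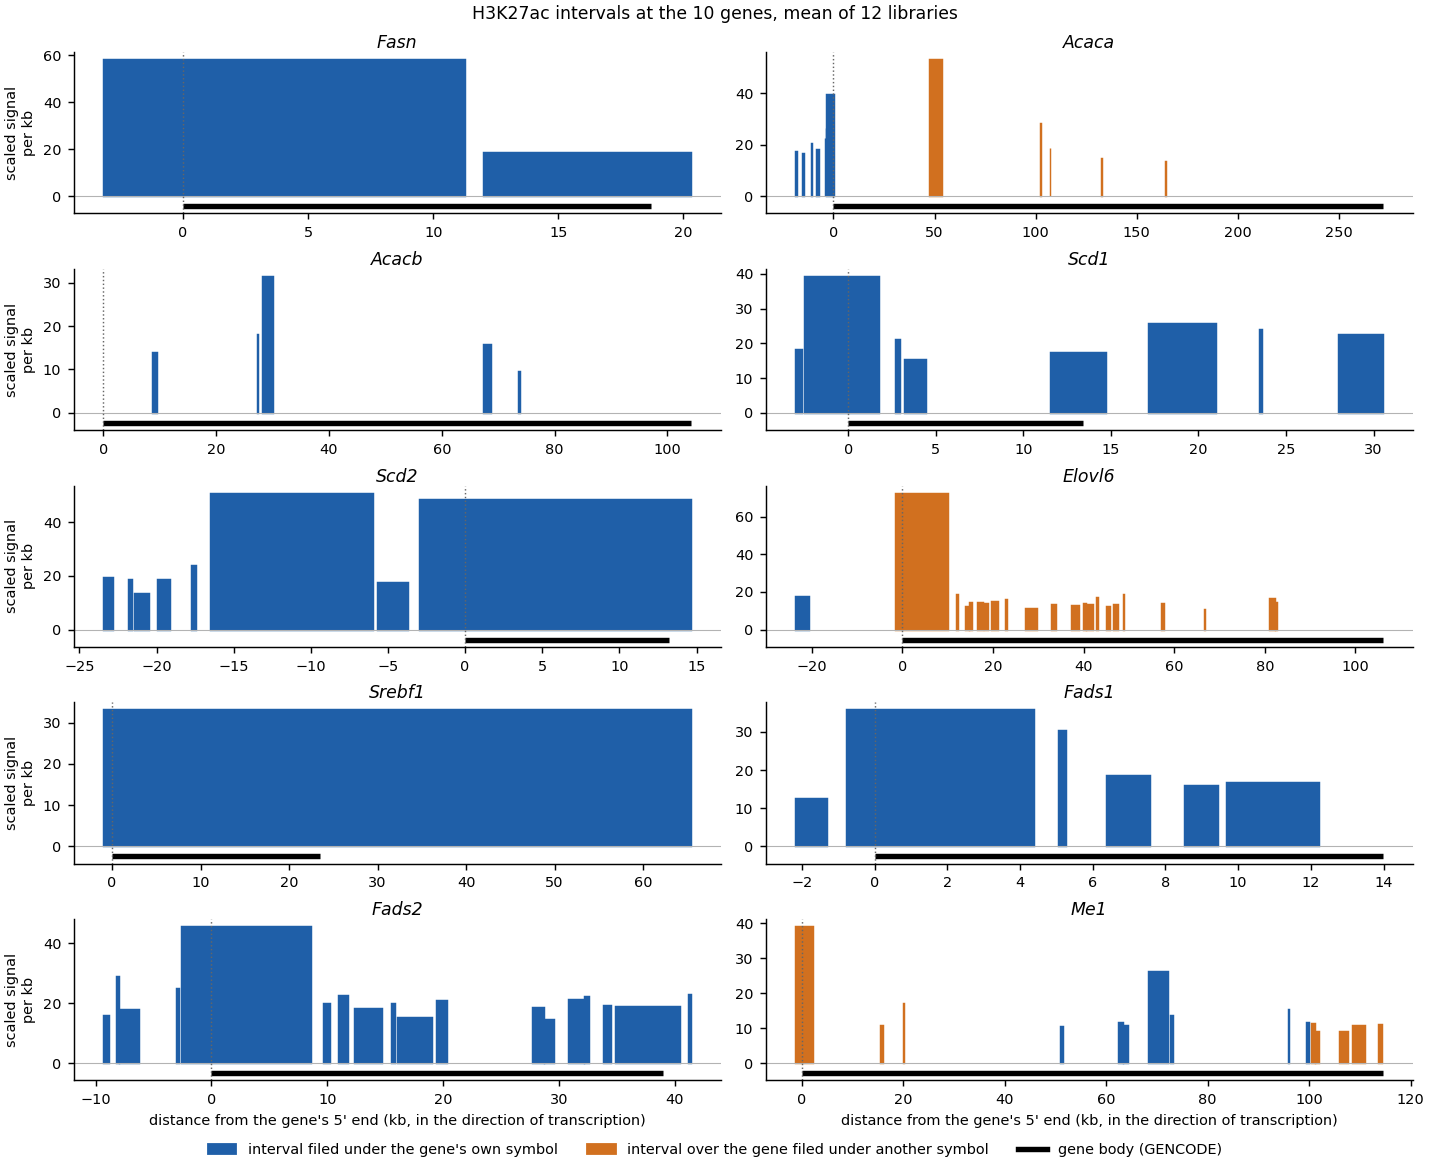
Mean scaled H3K27ac signal per kilobase over 12 libraries (vertical axis) of each interval, drawn to its length against the distance in kilobases from the 5′ end of the gene (horizontal axis), for the 10 genes. Blue intervals carry the gene's own name in the table and orange ones lie over the gene but carry another name; at Elovl6 and Me1 the interval over the 5′ end is orange.

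The table names each interval after the nearest start in its annotation, which left out the promoters of several members. The interval over the 5′ end of Elovl6 (chr3:129530717-129542448, which holds the shown window, mean 854) was filed under Gm35986, one of 21 intervals over the gene with that name. The only interval named Elovl6 was an intergenic one of mean 55.5 (chr3:129508757-129511820) with a table distance of -22066 bp from the start. At Me1 the interval over the 5′ end (chr9:86693797-86697215, mean 134) was filed under A330041J22Rik, and 5 intervals in the distal gene body under Rwdd2a. Acaca kept the interval over its 5′ end (chr11:84126200-84130140, mean 157), which it shares with the start of Tada2a, and which was the only one of its 7 intervals to touch the Acaca gene body, the others lying over Tada2a, but an internal interval over 3 further coding starts (chr11:84176713-84183171, mean 344) was filed under Gm11437. No interval covered the 5′ end of Acacb, and its strongest one (chr5:114174575-114176641, mean 65.2) covered an internal coding start 29073 bp downstream. For this reason the sums by name below are set beside the 14 intervals that cover a protein-coding start of a member in GENCODE, whatever their name, a choice made after seeing the data.

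Addition of acetate was accompanied by a higher H3K27ac signal at all 10 genes. Averaged over the 3 backgrounds (no inhibitor, etomoxir, etomoxir + SB204990), all 10 rose at an adjusted p under 0.05 in limma, against 88.2% of the 19458 genes tested. The log2 fold change ran from 0.54 at Fads2 to 0.88 at Acacb with a median of 0.66, and the median over all genes tested was 0.63. In each of the 6 comparisons of an acetate library with its counterpart of the same set, all 10 members were higher with acetate, which held for 84.2% of all genes. For 7 members the lowest of the 6 acetate libraries lay above the highest of the other 6, against 39.3% of all genes. That ranking crosses the separate scales of the sets. Within each set the acetate libraries lay above the others for 9 members, the exception being Elovl6, against 53.3% of all genes.

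**Figure D2:**
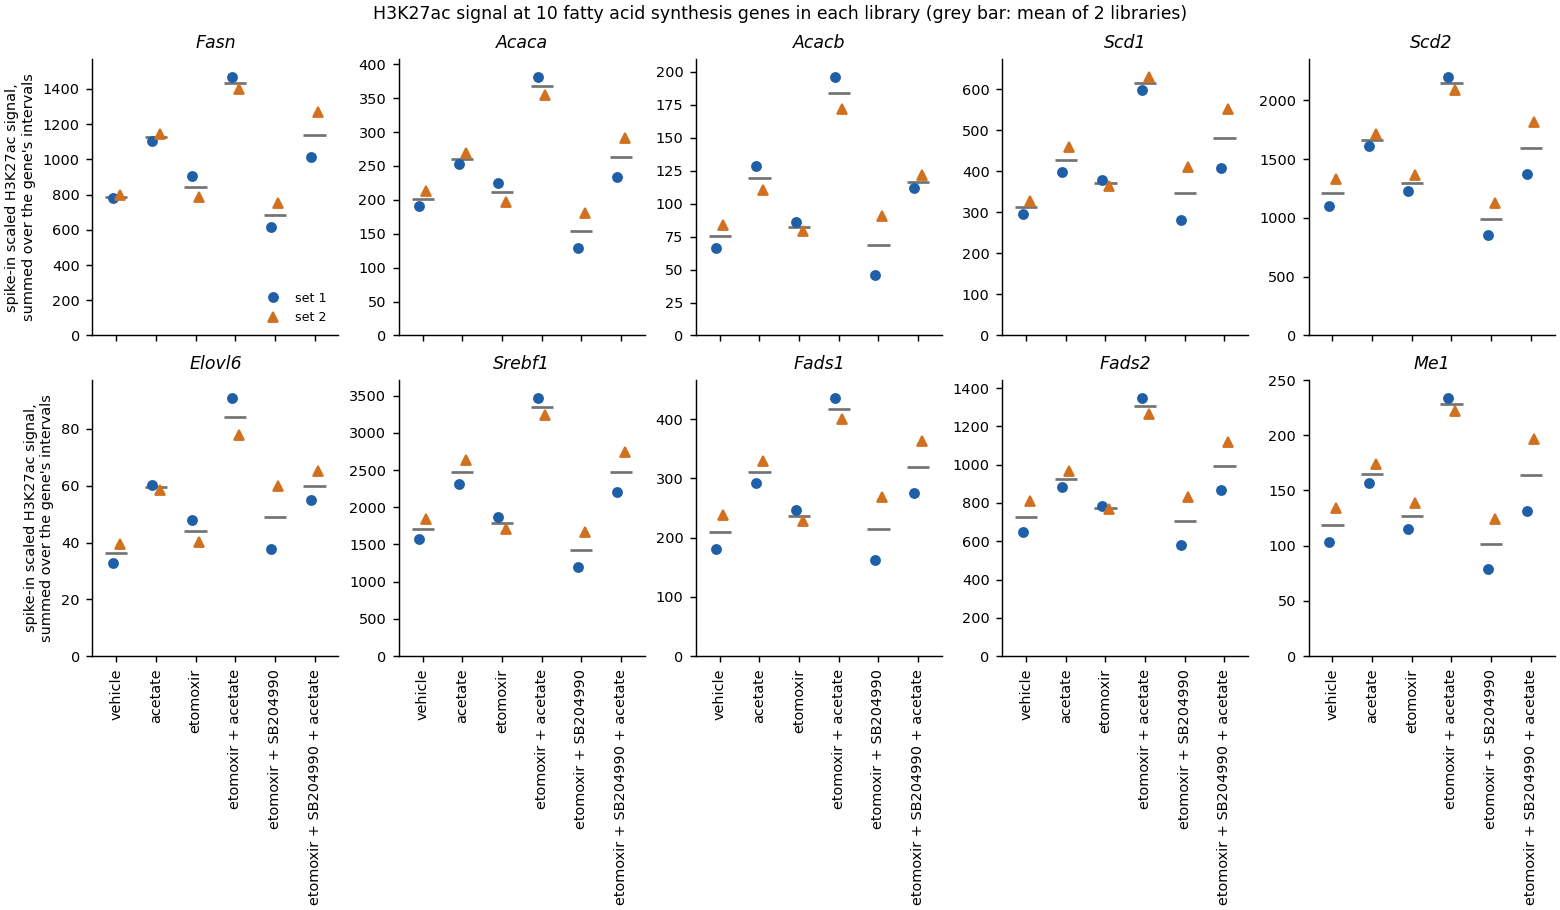
Scaled H3K27ac signal summed over the intervals of each gene (vertical axis, from 0) in the 6 treatments, with 1 point per library (circles set 1, triangles set 2) and a grey bar at the mean of 2. Etomoxir + acetate gave the highest value in both sets at all 10 genes, as it did at 82.6% of all genes tested.

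Srebf1, the regulator, had the largest summed signal of the 10 genes, over an interval that also covers Rai1. Per kilobase it measured 33.2, below Scd2 (44.7) and Fasn (44.0). Its scaled signal in sets 1 and 2 was 1579 and 1837 with vehicle, 2318 and 2642 with acetate, 1873 and 1704 with etomoxir, 3473 and 3236 with etomoxir + acetate, 1192 and 1663 with etomoxir + SB204990, and 2210.1 and 2747 with etomoxir + SB204990 + acetate. Acetate libraries did not overlap the others, and the acetate average was 0.75 ± 0.11 on the log2 scale (SE, adjusted p = 1.45e-05). Relative to the library median, the genes whose pattern over the 12 libraries was most like that of Srebf1 were Map1lc3b, Pspn and Zbtb17 (Pearson r = 0.965, 0.960 and 0.954). They were picked as the closest of 13205 genes with a mean of at least 100, so this is a description only.

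The carboxylase genes differed in level. Acaca, with 64.6% of its signal in the interval shared with Tada2a, measured 191 and 213 with vehicle, 253 and 269 with acetate, 225 and 198 with etomoxir, 381 and 355 with etomoxir + acetate, 129 and 180 with etomoxir + SB204990, and 234 and 291 when acetate was added to both inhibitors. Acetate libraries again lay above all others, the closest values being 234 and 225, and the acetate average was 0.65 ± 0.13 (adjusted p = 0.000115). Acacb, encoding the isoform at the outer mitochondrial membrane, measured 66.4 and 84.0 with vehicle, 129 and 110.3 with acetate, 86.3 and 79.0 with etomoxir, 196 and 172 with etomoxir + acetate, 46.2 and 91 with etomoxir + SB204990, and 112 and 121 with the triple combination. Its acetate average was 0.88 ± 0.17 (adjusted p = 8.82e-05), larger than in 96.4% of all genes, and it was 1.13 in set 1 and 0.64 in set 2. The interval over the internal coding start rose by 0.96 ± 0.18 (adjusted p = 6.42e-07), with 44.9 and 49.9 under vehicle against 128 and 102.7 under etomoxir + acetate.

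Fasn, encoding the synthase itself, had a similar acetate average in both sets. It summed to 779 and 799 with vehicle, 1106 and 1147 with acetate, 905 and 787 with etomoxir, 1467 and 1399.7 with etomoxir + acetate, 613 and 751 with etomoxir + SB204990, and 1011 and 1268 with etomoxir + SB204990 + acetate. The mean was 789 ± 14.3 (SD, n = 2) with vehicle and 1127 ± 28.4 (SD, n = 2) with acetate. The spread was larger in the other treatments, up to 1139 ± 182 (SD, n = 2) with the triple combination. Its acetate average was 0.67 ± 0.11 (adjusted p = 1.79e-05), close to 0.64 in set 1 and 0.70 in set 2. Both intervals rose, the one covering the promoter shown above by 0.64 ± 0.10 (adjusted p = 1.46e-08) and the weaker one over the 3′ part (chr11:120804238-120812563) by 0.84 ± 0.14 (adjusted p = 1.99e-08). Chit1, Tgm1 and Ggta1 followed Fasn most closely over the libraries (Pearson r = 0.929, 0.922 and 0.918, on the same terms as above).

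Among the desaturases, Scd2 was the strongest, at 1099 and 1333 with vehicle, 1617 and 1717 with acetate, 1225 and 1363 with etomoxir, 2198 and 2091 with etomoxir + acetate, 854 and 1127 with etomoxir + SB204990, and 1376 and 1813 with the triple combination. Scd1, its stearoyl-CoA desaturase paralog, gave 296 and 328 with vehicle, 397 and 459 with acetate, 378 and 364 with etomoxir, 598 and 629 with etomoxir + acetate, 282 and 411 with etomoxir + SB204990, and 407 and 552 with the triple combination. Scd1 overlapped between acetate and other libraries only across the sets, whose scales are separate. There, 397 with acetate and 407 with the triple combination in set 1 lay below 411 with etomoxir + SB204990 in set 2. Within each set the acetate libraries of Scd1 lay above the others. Their acetate averages were 0.63 ± 0.11 for Scd2 and 0.55 ± 0.12 for Scd1 (adjusted p = 3.26e-05 and 0.000304).

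Fads1 and Fads2, the delta-5 and delta-6 desaturases of polyunsaturated fatty acids, are neighbours on chromosome 19. Fads2 measured 646 and 811 with vehicle, 886 and 966 with acetate, 785 and 767 with etomoxir, 1350 and 1263 with etomoxir + acetate, 582 and 831 with etomoxir + SB204990, and 869.9 and 1116 with the triple combination. Fads1 measured 180.0 and 238 with vehicle, 293 and 329.95 with acetate, 246 and 228 with etomoxir, 436 and 399 with etomoxir + acetate, 161 and 268 with etomoxir + SB204990, and 276 and 363 with the triple combination. The rise with acetate was 0.54 ± 0.11 at Fads2 and 0.67 ± 0.14 at Fads1 (adjusted p = 0.000192 and 0.000157), and neither gene overlapped between acetate and other libraries. The difference between these 2 changes was not tested.

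Elovl6, which elongates palmitate, had the weakest sum, which leaves out its promoter. It measured 32.7 and 39.6 with vehicle, 60.4 and 58.6 with acetate, 48.0 and 40.1 with etomoxir, 91 and 77.8 with etomoxir + acetate, 37.8 and 60 with etomoxir + SB204990, and 55.0 and 65.0 with the triple combination. The second etomoxir + SB204990 library, at 60, overlapped the acetate libraries. The interval over the Elovl6 promoter shown above measured 736 and 695 with vehicle, 1015 and 809 with acetate, 761 and 866 with etomoxir, 1114 and 1125 with etomoxir + acetate, 638 and 570 with etomoxir + SB204990, and 781 and 1139 with the triple combination. It rose with acetate by 0.48 ± 0.10 (adjusted p = 1.85e-05), beside 0.65 ± 0.20 (adjusted p = 0.00364) for the interval that carries the gene's name.

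Me1, one of the genes of NADPH supply, measured 104 and 134 with vehicle, 156 and 174 with acetate, 115 and 139 with etomoxir, 234 and 222 with etomoxir + acetate, 78.5 and 124 with etomoxir + SB204990, and 131 and 197 with the triple combination. Its acetate average was 0.68 ± 0.16 (adjusted p = 0.00043), and the interval over the promoter shown above, filed under another name, rose by 0.66 ± 0.14 (adjusted p = 1.77e-05). The triple combination of set 1, at 131, lay below vehicle and etomoxir of set 2, which is on a separate scale. Within each set the acetate libraries of Me1 lay above the others.

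At the level of single intervals, 32 of the 42 member intervals tested rose in the acetate average and none fell, against 77.2% of the 63903 intervals tested, and their median of 0.64 equalled that of all intervals. Taken by background, 0 of the 42 passed without inhibitor (0.0955% of all intervals), 29 rose with etomoxir (56.4%) and 12 with both inhibitors (27.4%). Leaving out a library moved these counts with the share of all intervals: to 12 without either etomoxir + SB204990 library (21.0% and 21.2%) where there was no inhibitor, to 4 without the first etomoxir + acetate library (8.05%) with etomoxir, and with both inhibitors to 2 without the second library of the triple combination (3.31%) and 31 without the second etomoxir + SB204990 library (71.6%). All 14 intervals over a coding start rose in the average, from 0.42 ± 0.13 at the Scd1 promoter (chr19:44406120-44410416) to 1.12 ± 0.26 at an internal Elovl6 start (chr3:129551876-129553377). The 10 member intervals that did not pass were weak, with means between 10.8 and 30.3.

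The rise depended on the spike-in factor. When the libraries were instead scaled by the median of gene ratios, which sets the median change of all genes near 0, the acetate average of the members lay between -0.10 and 0.25 and none passed, with Fads2, Scd1 and Scd2 below 0. Under this scaling Acacb kept the largest value, 0.25 (adjusted p = 0.334), followed by Srebf1 at 0.11 (adjusted p = 0.322). When the factor was applied to the share of reads in place of the reads, all 10 stayed above 0, at 0.33 to 0.68, and none passed (adjusted p from 0.396 to 0.402).

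**Figure D3:**
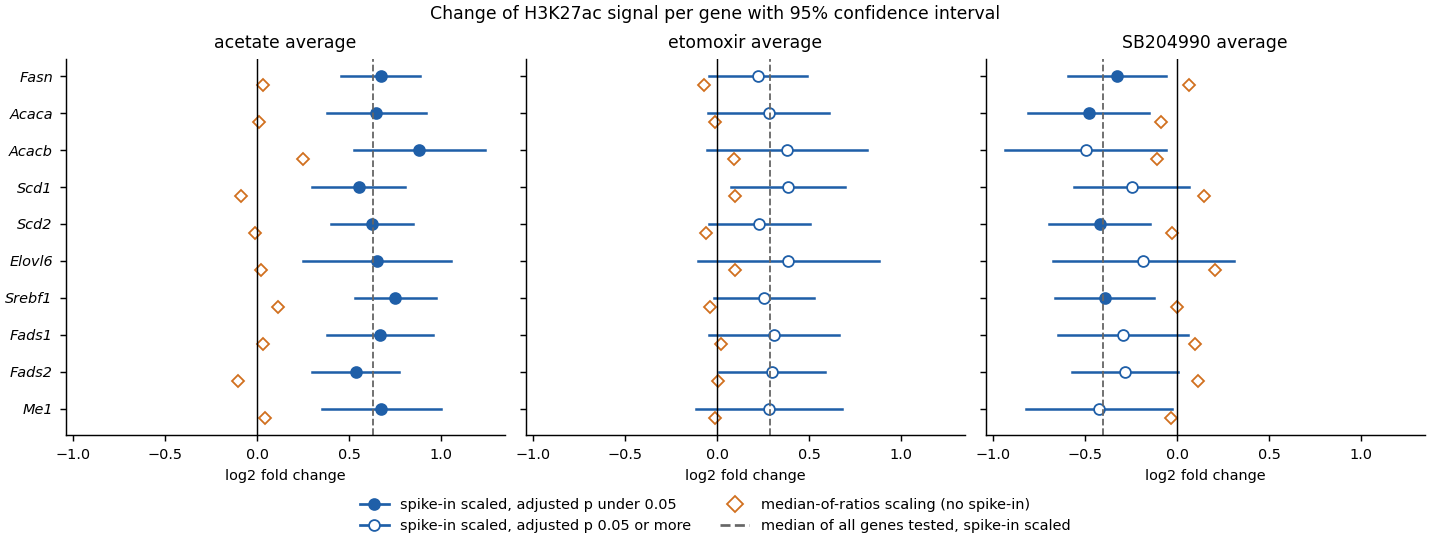
Log2 fold change of summed scaled signal (horizontal axis) for the 10 genes in the acetate, etomoxir and SB204990 averages, with 95% confidence intervals and filled circles where the adjusted p was under 0.05. Diamonds show the same change under median-of-ratios scaling without the spike-in and lie near 0, and the dashed line is the median of all genes tested.

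The backgrounds were then taken one at a time. Without inhibitor, acetate against vehicle gave log2 values from 0.35 at Fads2 to 0.71 at Elovl6, but no member passed (adjusted p from 0.101 to 0.179) and neither did any other gene (0% of those tested, 8341 at an unadjusted p under 0.05). Taken by set, all 10 values were above 0, from 0.41 to 0.94 in set 1 and from 0.25 to 0.55 in set 2. edgeR on the reads also called no member and no other gene. With the set as a block 3 members were called (20.0% of all genes), DESeq2 called 4 (27.6%) and limma fitted on these 4 libraries alone called 9 (61.5%). The fit over all treatments called 8 once either of the etomoxir + SB204990 libraries was left out (61.1% and 61.2% of all genes) and 2 without either library of the triple combination (11.9%). In the presence of etomoxir all 10 members rose, by 0.72 at Scd1 to 1.14 at Acacb, against 78.2% of all genes, with 6 left without the first etomoxir + acetate library (28.8% of all genes) or the second etomoxir library (37.9%). With both inhibitors, 8 rose, by 0.50 at Fads2 to 0.84 at Acacb, against 57.7% of all genes, and Scd1 (0.48, adjusted p = 0.0581) and Elovl6 (0.32, adjusted p = 0.40) did not pass. Of these 8, 2 were left without the first etomoxir + SB204990 library (19.1% of all genes higher, and 817 genes lower), none without the second library of the triple combination (0% of all genes) and none when only the 4 libraries compared were fitted (0%).

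Whether the acetate change differed between backgrounds was tested directly. The difference between the change with etomoxir and the change without inhibitor was above 0 at all 10 members (0.22 at Elovl6 to 0.48 at Acacb, median 0.32, median of all genes 0.30), but none passed (adjusted p from 0.774 to 0.823), nor did any gene (0%, 31 at an unadjusted p under 0.05). With both inhibitors the corresponding difference ranged from -0.39 at Elovl6 to 0.41 at Acaca and again none passed (adjusted p = 0.999, 0% of genes, 11 unadjusted). The 95% intervals stayed wide, for Fasn from -0.28 to 0.78 with etomoxir and from -0.31 to 0.76 with both inhibitors. Without the first etomoxir + SB204990 library, the second difference passed at 3.36% of all genes, which were lower, and at no member.

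Etomoxir on its own gave no called change at the 10 genes, which does not show that they stayed close to vehicle. The 95% intervals were wide, from -0.42 to 0.97 at Elovl6 and from -0.28 to 0.47 at Fasn. Against vehicle the log2 values were 0.06 at Acaca to 0.28 at Elovl6 (adjusted p = 0.99 for each), and no member passed, against 0.0154% of all genes called higher and 133 at an unadjusted p under 0.05. In set 1 all 10 values were above 0, from 0.15 to 0.54, and in set 2 they ran from -0.11 to 0.15. Averaged with and without acetate, the etomoxir change was 0.22 at Fasn to 0.39 at Scd1 and Elovl6, with a median of 0.29 equal to that of all genes, and none passed (adjusted p from 0.181 to 0.263, 0.298% of genes called higher), Scd1 and Fads2 having an unadjusted p of 0.0173 and 0.0425. Leaving out either etomoxir + SB204990 library brought 3 members past the threshold, together with 32.3% and 32.6% of all genes. With acetate present in both arms, etomoxir gave 0.35 to 0.62 and none passed (adjusted p from 0.151 to 0.239, 0.0771% of genes called); without the first or the second etomoxir + SB204990 library, 5 members passed, with 43.1% and 43.5% of all genes.

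Of the member intervals, 1 of the 42 tested was higher in the etomoxir average, against 0.419% of all intervals. It is an intergenic interval downstream of Scd1, annotated at 28068 bp from a transcription start (chr19:44377327-44379917, 2591 bp).

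Scaled signal in this interval was 17.8 and 42.8 with vehicle, 35.6 and 57.7 with acetate, 54.3 and 44.1 with etomoxir, 93 and 99.8 with etomoxir + acetate, 40.2 and 59 with etomoxir + SB204990, and 78.3 and 87.6 with the triple combination. Etomoxir libraries lay above their counterparts in both sets with acetate present, and, without acetate, at 54.3 against 17.8 in set 1 and at 44.1 against 42.8 in set 2. The etomoxir average was 0.94 ± 0.23 (adjusted p = 0.016); taken by set it was 1.46 and 0.41. Without the first vehicle library it was 0.63 (adjusted p = 0.635), and it was 0.61 (adjusted p = 0.518) under median-of-ratios scaling. The call was also lost without the first acetate or either of the etomoxir or etomoxir + acetate libraries. Over the Scd1 promoter the same contrast was 0.24 ± 0.16 (adjusted p = 0.32), and whether the 2 intervals differ was not tested. Acetate raised the downstream interval too, by 0.80 ± 0.19 (adjusted p = 6.12e-05).

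**Figure D4:**
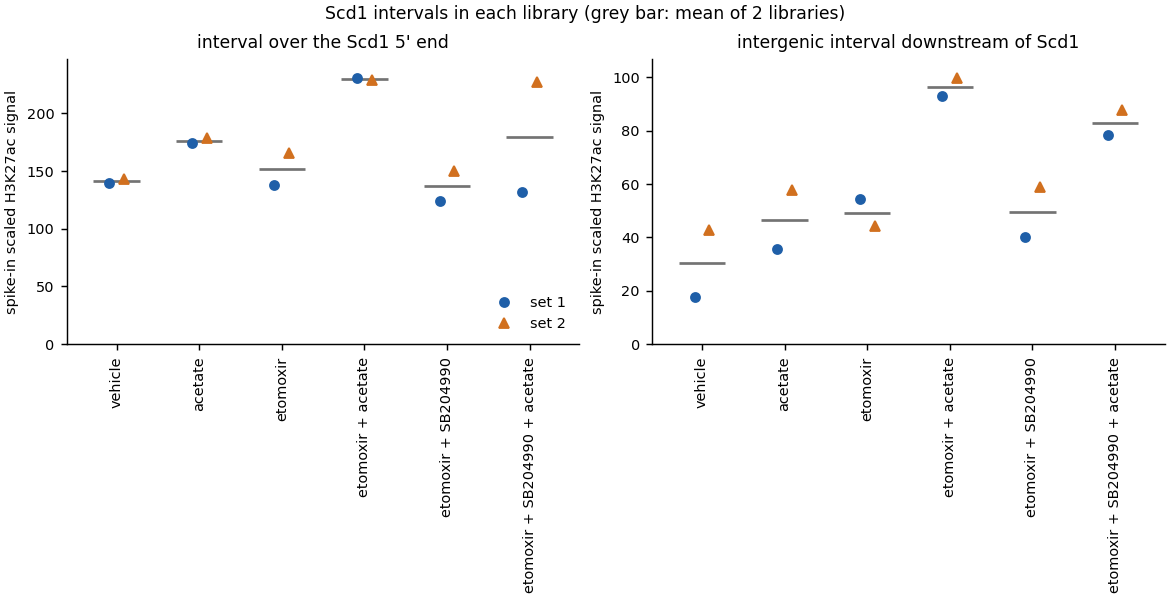
Scaled H3K27ac signal (vertical axis, from 0) of the interval over the 5′ end of Scd1 (left) and of the intergenic interval downstream of it (right) in the 6 treatments, circles set 1, triangles set 2, grey bars the mean of 2 libraries. The downstream interval lies between 17.8 and 99.8, with its lowest value in the first vehicle library.

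SB204990 was tested on top of etomoxir, with and without acetate. The average over both was below 0 at all 10 members, from -0.18 at Elovl6 to -0.50 at Acacb, with a median of -0.36 against -0.40 for all genes. A lower signal passed at 4 of them, Fasn (-0.33 ± 0.13, adjusted p = 0.0437), Acaca (-0.48 ± 0.16, adjusted p = 0.029), Scd2 (-0.42 ± 0.13, adjusted p = 0.0276) and Srebf1 (-0.39 ± 0.13, adjusted p = 0.0292), against 45.0% of all genes. Acacb missed narrowly (adjusted p = 0.0561), followed by Me1 (0.068) and Fads2 (0.0904).

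The sets differed in this contrast. In set 1, every member was lower with SB204990, at 0.535 to 0.788 of the etomoxir library without acetate and 0.561 to 0.689 with it. In set 2 with acetate present all 10 members were lower, at 0.707 to 0.908, whereas without acetate 5 were lower and 5 higher, with ratios from 0.827 to 1.497, the latter at Elovl6. This last comparison rests on the second etomoxir + SB204990 library, the one that stood apart from the rest; its part in the result was not tested, and without it 9 of the members passed, against 85.1% of all genes. Without the first library of any of the 4 treatments compared, or the second of etomoxir or etomoxir + acetate, none passed, nor did any other gene except without the first etomoxir + SB204990 library (20.6% of all genes lower). Under median-of-ratios scaling the members lay between -0.11 and 0.20 and none passed.

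By interval, 5 of the 42 tested were lower, against 19.2% of all intervals, namely the Srebf1 interval, the Fasn and Scd2 intervals over the 5′ end, the Acacb interval at the internal start (-0.60 ± 0.22, adjusted p = 0.0378) and an intergenic interval upstream of Scd2 (chr19:44277171-44287736, -0.53 ± 0.13, adjusted p = 0.0086). The last measured 458 and 517 with etomoxir against 277 and 412 with etomoxir + SB204990, and 781 and 783 against 476 and 614 in the presence of acetate, so it was lower in both sets. Counted at coding starts, 6 of the 14 intervals were lower, among them the Elovl6 promoter (-0.34 ± 0.13, adjusted p = 0.0451) and the Acaca interval filed under Gm11437 (-0.40 ± 0.14, adjusted p = 0.0331). Against vehicle, no member was called for etomoxir + SB204990 without acetate (log2 values from -0.40 at Acaca to 0.40 at Elovl6, adjusted p from 0.777 to 0.994). The 95% intervals were wide, from -0.87 to 0.06 at Acaca and from -0.30 to 1.09 at Elovl6, so a change is not excluded. Of all genes, 0.00514% were called higher and 0% lower. Without the first etomoxir + SB204990 library 5.47% were called higher, and without the second 12.3% were called lower, 1 member among them.

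Genes that work beside the 10 members were counted from lists that held no member. Their counts are to be read against the 88.2% of all genes that rose in the acetate average and the 45.0% that fell in the SB204990 average. Of 16 further genes of elongation and desaturation, 11 were tested; 10 rose in the acetate average, the exception being Elovl4 (0.28, adjusted p = 0.41), and 5 fell with SB204990, the elongases Elovl5 (-0.48) and Elovl7 (-0.44) and the elongation-cycle enzymes Hacd3 (-0.48), Hacd4 (-0.61) and Hsd17b12 (-0.37). All 6 genes of precursor and NADPH supply rose with acetate, among them Acly, which encodes the target of SB204990 (0.65 ± 0.12, adjusted p = 6.16e-05), and Acss2, which encodes the cytosolic enzyme that activates acetate (0.57 ± 0.21, adjusted p = 0.0159). The NADPH producers G6pdx and Pgd fell with SB204990, both by 0.37. Of 4 tested genes of mitochondrial fatty acid synthesis, all rose with acetate and Cbr4 (-0.55), Mcat (-0.46) and Mecr (-0.50) fell with SB204990.

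Among 17 regulators, 12 were tested and all 12 rose in the acetate average, including Srebf2 (0.58), its escort Scap (0.64) and the retention factors Insig1 (0.40) and Insig2 (0.58). With SB204990, 7 fell, namely Mlx (-0.44), Insig2 (-0.45), the SREBP proteases Mbtps1 (-0.47) and Mbtps2 (-0.48), the liver X receptors Nr1h2 (-0.39) and Nr1h3 (-0.39) and the AMP kinase subunit gene Prkaa1 (-0.42). The median of the regulators was 0.63 for acetate and -0.39 for SB204990, against 0.63 and -0.40 for all genes. Against the same shares of all genes, 88.2% and 45.0%, all 3 epithelial markers tested rose with acetate and fell with SB204990, and of 4 leukocyte and endothelial markers 3 rose with acetate and 2, Cd3e (-1.07) and Pecam1 (-0.47), fell with SB204990; their part in the results was not tested.

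One gene of these lists rose in the etomoxir average, in which 0.298% of all genes rose, Mlycd, which encodes malonyl-CoA decarboxylase, the enzyme that removes the product of ACC. Its scaled signal was 64.0 and 75.3 with vehicle, 87.5 and 118 with acetate, 123 and 117 with etomoxir, 214 and 204 with etomoxir + acetate, 106 and 103 with etomoxir + SB204990, and 159.8 and 183 with the triple combination. Etomoxir libraries were higher than vehicle, and etomoxir + acetate libraries higher than acetate, in both sets. The change was 0.91 ± 0.18 (adjusted p = 0.0174), 1.11 in set 1 and 0.70 in set 2, larger than in 99.7% of genes, and it was 0.62 under median-of-ratios scaling (adjusted p = 0.14). Across 23 alternatives it kept its direction, at 0.62 to 1.01, and passed in 13.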

How the data were processed

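Chromatin of 4T1 cells was fixed with formaldehyde, digested with micrococcal nuclease and precipitated for H3K27ac after addition of human chromatin, and sequenced as paired ends. Per the labels, the authors ran the nf-core chipseq workflow on a merged human and mouse genome (builds named are GRCh38, GRCm38 and mm10) and took the scaling factor of each library from its percent of human reads; the aligner and peak caller settings are not given in the sources used here. The deposited signal is the read count of each interval times that factor. The authors' factor was 1 in a library of each set, whose deposited values are therefore read counts. Dividing by the factor returned whole reads (within 0.01) for 100% of values, and these reads were used for edgeR 4.0.16 and DESeq2 1.42.0.

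Signal was summed over intervals with the same gene name. log2(signal + 1) was fitted with limma 3.58.1 (trend, 6 treatment means over 12 libraries, R 4.3.3) for features with a mean of at least 10, and p-values were adjusted by Benjamini-Hochberg over all of them. Fold changes are on the log2(signal + 1) scale, which understates low values. Averages weight backgrounds equally: 3 for acetate, and with and without acetate for etomoxir (against no inhibitor) and SB204990 (against etomoxir). The fit was tested on simulated data with known factors, a test that cannot show the effect of an error in the factors. The text names all members, of each the interval nearest to a start and the one of largest mean, up to 3 called member intervals per average with a mean of at least 50 and one direction in both sets, list genes called in the etomoxir or SB204990 average, and the 3 genes most like Fasn and Srebf1. The other intervals over coding starts and the genes Acly, Acss2, Elovl4, Srebf2, Scap and Insig1 were named after their values were seen. Members and lists were chosen with earlier results of these data known. Alternatives covered scaling, pseudocount, filter, trend, tool, replicate block and leaving out each library. Motifs were searched with Python 3.11.15 and pysam 0.24.0. The sequence of one intergenic interval is not reported here. No block was used in the fit. Same-numbered libraries deviated together over genes in 4 of 15 treatment pairs, a check that cannot show a shift common to all genes of a set.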

Additional observations from a re-analysis of the deposited data

How the results depend on the processing

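Among genes, the acetate average (10 members called), acetate with etomoxir (10), acetate with both inhibitors (8) and the SB204990 average (4 lower) each fell to 0 under median-of-ratios scaling, total-sum scaling and the share of reads times the factor. Without the intensity trend the last 2 gave 5 and 0. The share of all genes without the trend is not given here, so these counts do not set the members apart. Acetate against vehicle went from 0 to 4 with DESeq2 and 9 on the libraries compared, where acetate with both inhibitors gave 0. Leaving out 1 library at a time gave 10 to 10 calls for the acetate average, 0 to 8 for acetate against vehicle, 6 to 10 with etomoxir, 0 to 9 with both inhibitors, 0 to 1 for etomoxir + SB204990 against vehicle, 0 to 3 for the etomoxir average and 0 to 9 for the SB204990 average (9 without the second etomoxir + SB204990 library). The interval counts that follow stand without the share of all intervals in each fit, so they do not set the members apart. Among intervals, 32 calls for acetate, 1 for etomoxir and 5 for SB204990 became 0 under the same 3 scalings. Acetate gave 16 of the 16 left to test at a mean of at least 50. Etomoxir gave 0 without the trend or with DESeq2, and SB204990 0 without the trend and 2 without the filter. Leaving out 1 library gave 25 to 39, 0 to 4 and 0 to 27, the 27 without the second etomoxir + SB204990 library. No member gene was called for etomoxir against vehicle or for either interaction under any alternative run.

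The replicate block was an alternative only. Over 15 treatment pairs the correlation over genes of same-numbered deviations was -0.22 to 0.60 (median -0.14), over 0.1 in 4. Such a correlation cannot show a shift common to all genes of a set, and the factor scale was set apart in each set. Whether the numbers pair the libraries is thus not settled by it. With the block, acetate against vehicle gave 3 calls (20.0% of all genes) and the SB204990 average 6 (57.9% of all genes lower). Acetate with both inhibitors gave 9 with the block, and 8 without it, where 57.7% of all genes rose.

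Directions turned under median-of-ratios and total-sum scaling, in that order. In the acetate average these were Scd1 (-0.086 and -0.073), Scd2 (-0.013 and -0.0003), Fads2 (-0.10 and -0.091) and, among intervals filed under other names, the internal one over 3 Acaca coding starts (-0.090 and -0.060) and the one over the Elovl6 5′ end (-0.17 and -0.14). In the etomoxir average they were Fasn (-0.070 and -0.047), Scd2 (-0.062 and -0.039) and Srebf1 (-0.038 and -0.015), and under median-of-ratios alone Acaca (-0.011) and Me1 (-0.0096). In the SB204990 average they were Fasn (0.068 and 0.067), Scd1 (0.15 and 0.15, and 0.024 with the share), Elovl6 (0.20 and 0.20, and 0.084 with the share), Srebf1 (0.0007 and 0.0004), its interval (0.011 and 0.0004), Fads1 (0.10 and 0.099) and Fads2 (0.11 and 0.11). By construction the first scaling moves the median change of all genes from 0.63 to -0.0019 for acetate, from 0.29 to -0.0017 for etomoxir and from -0.40 to -0.0073 for SB204990, and the second gives 0.010, 0.021 and -0.0076; for other changes of calls the cause was not tested. Limiting sums to 10 kb around a start left 8 members, without Elovl6 and Srebf1.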
